A study of Rattus norvegicus with 53 samples.

Results

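The expression of 39 genes of fatty acid oxidation, and of genes linked to it through the peroxisome proliferator-activated receptors (PPARs), was followed in rat L6 myotubes with and without insulin. A probe set of the array was assigned to a gene where the platform annotation gave it that gene's symbol and no other, and the probe set with the highest mean level over all arrays stood for the gene, so that the 39 genes are part of 14218 with such a probe set. Of the 39, 38 passed a filter that kept the brighter probe sets, down to a mean log2 level of 5.04. The remaining gene, Cd36, a fatty acid transporter of the plasma membrane, had a mean log2 level of 3.21 and was not tested.

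L6 is an established line of rat skeletal muscle myoblasts, here differentiated into myotubes and then kept in serum-free medium. The insulin culture next received serum-free medium with 20 nM insulin, and the control culture received the same medium with no insulin. Both cultures were sampled at time 0, before the medium was changed, and then in 8 hourly pools, each made of 3 samples taken 20 min apart. The whole procedure was carried out in 3 repeats on different days (a, b and c) with the same line, which gave 53 arrays. Each culture had 3 arrays at every time, except that the insulin culture had 2 at hour 3, where repeat a was left out. All cultures came from a single cell line, so the p-values measure the spread between these arrays and days.

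Fatty acids are activated to acyl-CoA by the acyl-CoA synthetases, carried into the mitochondrion by the carnitine shuttle, and shortened there in cycles of dehydrogenation, hydration, a further dehydrogenation and thiolysis. Auxiliary isomerases and a reductase handle unsaturated chains, and peroxisomes oxidise very long and branched chains. PPARs are nuclear receptors activated by fatty acids, and many genes of this pathway are known PPAR targets in muscle and liver. Insulin is known to favour the storage of fuel over its oxidation.

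The arrays had median log2 levels between 6.3 and 6.37. Markers of differentiated muscle ranged widely in mean log2 level. Myog, a myogenic transcription factor, read 12.4 and Acta1, skeletal muscle actin, 13.5. Des read 7.30, Myh8 5.32 and Mb 5.27, and Myh7 at 4.73 did not reach the filter. Of the myoblast markers, Itga7 read 11.7 and Cdh15 10.1, and Myod1 at 4.12 did not reach the filter. None of the 17 tested myotube markers of 21 listed passed the test between cultures over hours 5 to 8 in limma (0 at an unadjusted p below 0.05). With the repeat as a block 4 of the 17 passed as lower. Of the adipocyte markers Adipoq, Plin1, Lep, Cidec, Fabp4 and Pparg did not reach the filter, and none of the 6 endothelial markers measured did. The 8 adipocyte markers measured summed to 8.08 to 8.41 on the insulin arrays and to 8.13 to 8.71 on the control arrays of hours 5 to 8 (log2 of the sum), and the 8 macrophage markers to 8.73 to 9.06 and to 8.91 to 9.15 on the insulin and the control arrays. Cfd and Cebpa, the 2 adipocyte markers tested, differed by -0.17 and -0.20 (insulin minus control, log2 scale, hours 5 to 8), and Cfd passed as lower with the repeat as a block. Of the 6 fibroblast markers 5 had differences below 0 over those hours, with a median of -0.21 over the 6. Pdgfra passed as lower (-0.32), and with the repeat as a block Dcn (-0.32) and Lum (-0.42) did too. The summed level of the 6 ranged from 13.8 to 14.7 on the insulin arrays and from 13.8 to 14.4 on the control arrays of those hours. The part of other cells in the results was not tested. Across the tested probe sets, the time 0 difference of repeat b, taken before insulin was added, resembled its difference at hours 1 to 5 (r = 0.77, against 0.025 in repeat a and 0.15 in repeat c), so counts are also given without the arrays of repeat b from time 0 to hour 5.

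The first question was how the genes differed between the insulin and the control culture late in the course, over hours 5 to 8, when each culture had 12 arrays from 3 repeats. Differences are insulin minus control on the log2 scale, and a gene passed where limma's adjusted p (Benjamini-Hochberg, over all tested probe sets) was below 0.05. The transcripts of 7 enzymes of oxidation were lower with insulin and that of 1 synthetase was higher. Those lower than in the control culture were Cpt1a, Cpt2, Acadm, Acaa2, Ech1, Decr1 and Hsd17b4, and the higher one was Acsl4. Thus 7 of 38 members passed as lower (18.4%), where 5.33% of all tested probe sets did, and 1 of 38 passed as higher (2.63%), where 4.02% of all did. A block for the repeat gave 15 members that passed as lower (39.5%, against 12.5% of all probe sets) and 2 as higher (5.26%, against 9.34%). Without the arrays of repeat b up to hour 5, 5 members passed as lower, against 4.6% of all, and 1 as higher, against 3.04%. Taking 1 mean per repeat and culture, with the repeats paired, left Cpt1a and Ech1 as lower, against 1.05% of all. In whole cultures, fewer cells of a kind and less RNA per cell cannot be told apart.

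Sorted by role, the direction was less mixed. All 25 tested members of the carnitine shuttle, the oxidation cycle, the auxiliary steps and the peroxisome had differences below 0, with a median of -0.12, and of the other 13 tested members 4 were below 0 and 9 above, with a median of 0.05. This split of the members was made after the values were seen. Over all 38 the median was -0.09, and over the 11577 tested genes it was -0.0013 with 50.5% of genes below 0. Within the repeats, the median over the 25 was -0.20 in a (23 below 0), -0.08 in b (21 below 0) and -0.10 in c (20 below 0), beside medians over all genes of -0.0080, -0.010 and 0.0048. The individual differences were small: the largest, that of Ech1, put the insulin culture at 0.678 times the control level.

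**Figure D1:**
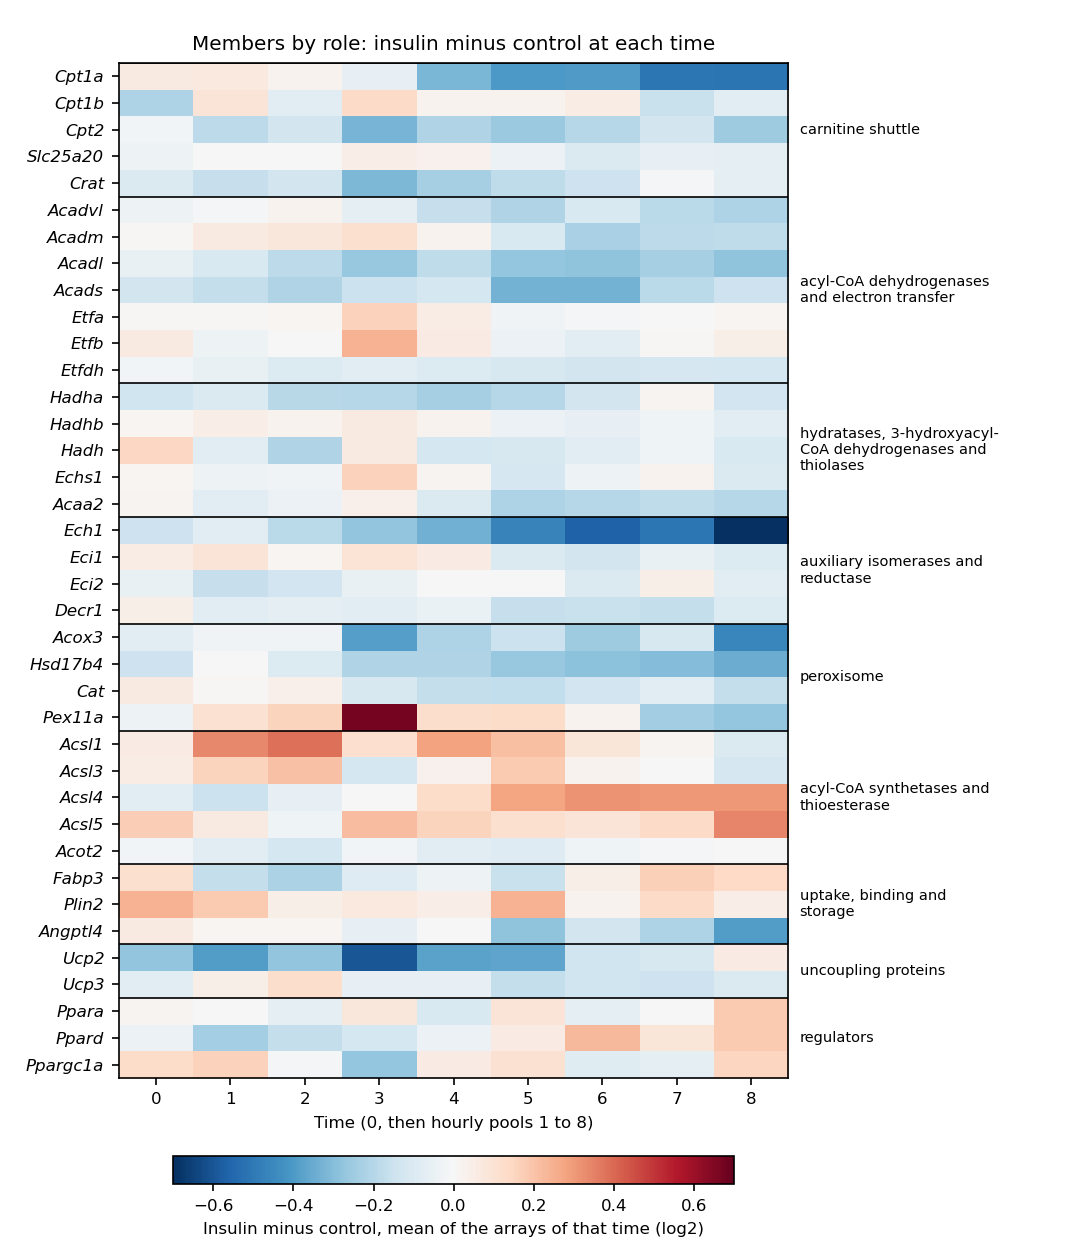
Insulin minus control (log2 scale, colour) for the 38 tested members, in rows grouped by role, at time 0 and in the hourly pools 1 to 8, each cell from the arrays of that time. Ech1 is below 0 at every time, at -0.15 at time 0 and -0.70 at hour 8. Cpt1a is clearly blue from hour 4 on, with -0.32 there and -0.51 at hour 8, and Acsl4 turns red over the same hours.

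Cpt1a encodes the carnitine palmitoyltransferase of the outer mitochondrial membrane, which controls the entry of long-chain fatty acids. Over hours 5 to 8 its log2 level was 9.40 at the lowest, 9.67 at the median and 9.99 at the highest on the 12 insulin arrays, against 9.94, 10.19 and 10.41 on the 12 control arrays. The cultures overlapped only through the insulin array of repeat b at hour 8, which read 9.99. The difference was -0.45 (SE 0.07, adjusted p = 9.27e-06), 0.73 times the control level. It was -0.60 in repeat a, -0.22 in b and -0.54 in c, and Cpt1a was lower with insulin in 12 of 12 pairs of the same repeat and hour. At time 0 the arrays had read 9.53, 9.44 and 9.46 in the insulin culture (repeats a, b and c) and 9.42, 9.53 and 9.29 in the control culture. A dimmer probe set of Cpt1a differed by -0.44 (adjusted p = 0.0722) over hours 5 to 8.

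Cpt2, the carnitine palmitoyltransferase of the inner membrane, had a log2 level of 8.15 at the lowest, 8.49 at the median and 8.75 at the highest on the insulin arrays of hours 5 to 8, against 8.42, 8.70 and 8.87 on the control arrays. The cultures overlapped over much of that range, and the insulin arrays of repeat a overlapped the control arrays of repeats b and c. The difference was -0.21 (SE 0.07, adjusted p = 0.0465), with lower levels in 11 of 12 pairs, and it missed the threshold without repeat b (or its arrays up to hour 5), without repeat c and with no filter on dim probe sets. Cpt1b, the muscle form of the outer enzyme, was dim at a mean log2 level of 6.12 and differed by -0.04 (adjusted p = 0.872). Slc25a20, the carrier that exchanges acylcarnitine for carnitine, differed by -0.07, and Crat, which acts on short acyl groups, by -0.10, neither passing.

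Among the acyl-CoA dehydrogenases, each specific for a range of chain lengths, Acadm (medium-chain) passed. Its log2 level was 9.21 at the lowest, 9.37 at the median and 9.50 at the highest on the insulin arrays of hours 5 to 8, against 9.21, 9.58 and 9.65 on the control arrays. Apart from the control array of repeat b at hour 5, which read 9.21, the control arrays read 9.48 or more and overlapped only the brightest insulin arrays. The difference was -0.17 (SE 0.06, adjusted p = 0.0401), lower in 11 of 12 pairs, and it was -0.35 in repeat a, -0.07 in b and -0.10 in c. It missed the threshold without repeat a (-0.09), without repeat c, with no filter and with arrays centred on their medians.

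The 3 other chain-length enzymes had differences of similar or larger size that did not pass: -0.27 for Acadl (long-chain, adjusted p = 0.0822), -0.25 for Acads (short-chain, 0.165) and -0.18 for Acadvl (very long-chain, 0.253). Acadl was lower with insulin in 12 of 12 late pairs and in 23 of 23 pairs over hours 1 to 8, and its levels differed more between repeats than between cultures. Etfdh, the oxidoreductase that passes the electrons to ubiquinone, differed by -0.12, and Etfa and Etfb, the subunits of the electron transfer flavoprotein, by -0.01 and -0.02. Acadl, Acads, Acadvl, Acadm and Etfdh all passed as lower with the repeat as a block, and Etfa and Etfb did not.

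Acaa2, the mitochondrial 3-ketoacyl-CoA thiolase that closes the cycle, was lower with insulin. Its log2 level was 9.26 at the lowest, 9.47 at the median and 9.54 at the highest on the insulin arrays of hours 5 to 8, against 9.47, 9.63 and 9.77 on the control arrays. The brightest insulin arrays lay level with the dimmest control arrays. The difference was -0.20 (SE 0.04, adjusted p = 0.00195), lower in 11 of 12 pairs, with -0.34 in repeat a, -0.17 in b and -0.08 in c. It missed the threshold without repeat a and without repeat b. The other members of these steps did not pass: Hadha and Hadhb, the subunits of the trifunctional protein, differed by -0.11 and -0.05, Hadh, the 3-hydroxyacyl-CoA dehydrogenase for shorter chains, by -0.08, and Echs1, the short-chain hydratase, by -0.06. Hadha passed as lower with the repeat as a block, and its difference had been -0.14 at time 0, before insulin.

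The largest difference of all members was that of Ech1, an isomerase that moves conjugated double bonds into a position the cycle can use. Over hours 5 to 8 its log2 level was 9.34 at the lowest, 9.51 at the median and 9.64 at the highest on the insulin arrays, against 9.80, 10.06 and 10.32 on the control arrays. Every insulin array lay below every control array, which held for no other member and for 0.683% of all tested probe sets. The difference was -0.56 (SE 0.09, adjusted p = 5.31e-05), with -0.62 in repeat a, -0.52 in b and -0.54 in c. The arrays of time 0 read 9.43, 9.42 and 9.07 in the insulin culture (a, b and c) and 9.77, 9.39 and 9.20 in the control culture, so that repeat a of the control was the highest before insulin was added.

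Decr1, the mitochondrial dienoyl-CoA reductase, had a log2 level of 10.07 at the lowest, 10.26 at the median and 10.39 at the highest on the insulin arrays of hours 5 to 8, against 10.26, 10.42 and 10.52 on the control arrays. The ranges overlapped in their inner parts. The difference was -0.14 (SE 0.04, adjusted p = 0.0166), lower in 11 of 12 pairs, and it missed the threshold without repeat a, without repeat b and with centred arrays. The enoyl-CoA isomerases Eci1 and Eci2 differed by -0.10 and -0.03 and did not pass.

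Hsd17b4, the peroxisomal bifunctional enzyme that hydrates and dehydrogenates enoyl-CoA, had a log2 level of 9.09 at the lowest, 9.24 at the median and 9.52 at the highest on the insulin arrays of hours 5 to 8, against 9.34, 9.55 and 9.93 on the control arrays. Repeat a was brighter than the others in both cultures, and its insulin arrays overlapped the control arrays of b and c. The difference was -0.30 (SE 0.08, adjusted p = 0.0154), lower in 12 of 12 pairs and close in size in the 3 repeats (-0.31, -0.28 and -0.32). At time 0, before insulin, it had been -0.35 in repeat a, 0.11 in b and -0.18 in c. The late difference missed the threshold without repeat b (or its arrays up to hour 5) and without repeat c. Acox3, an oxidase of branched acyl-CoA, lay near the filter at a mean log2 level of 5.06 and differed by -0.24. Cat, the catalase that removes the hydrogen peroxide these oxidases release, differed by -0.14 (lower in 12 of 12 pairs), and Pex11a, a factor of peroxisome division, by -0.09. None of these 3 passed, while Acox3 and Cat passed as lower with the repeat as a block.

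**Figure D2:**
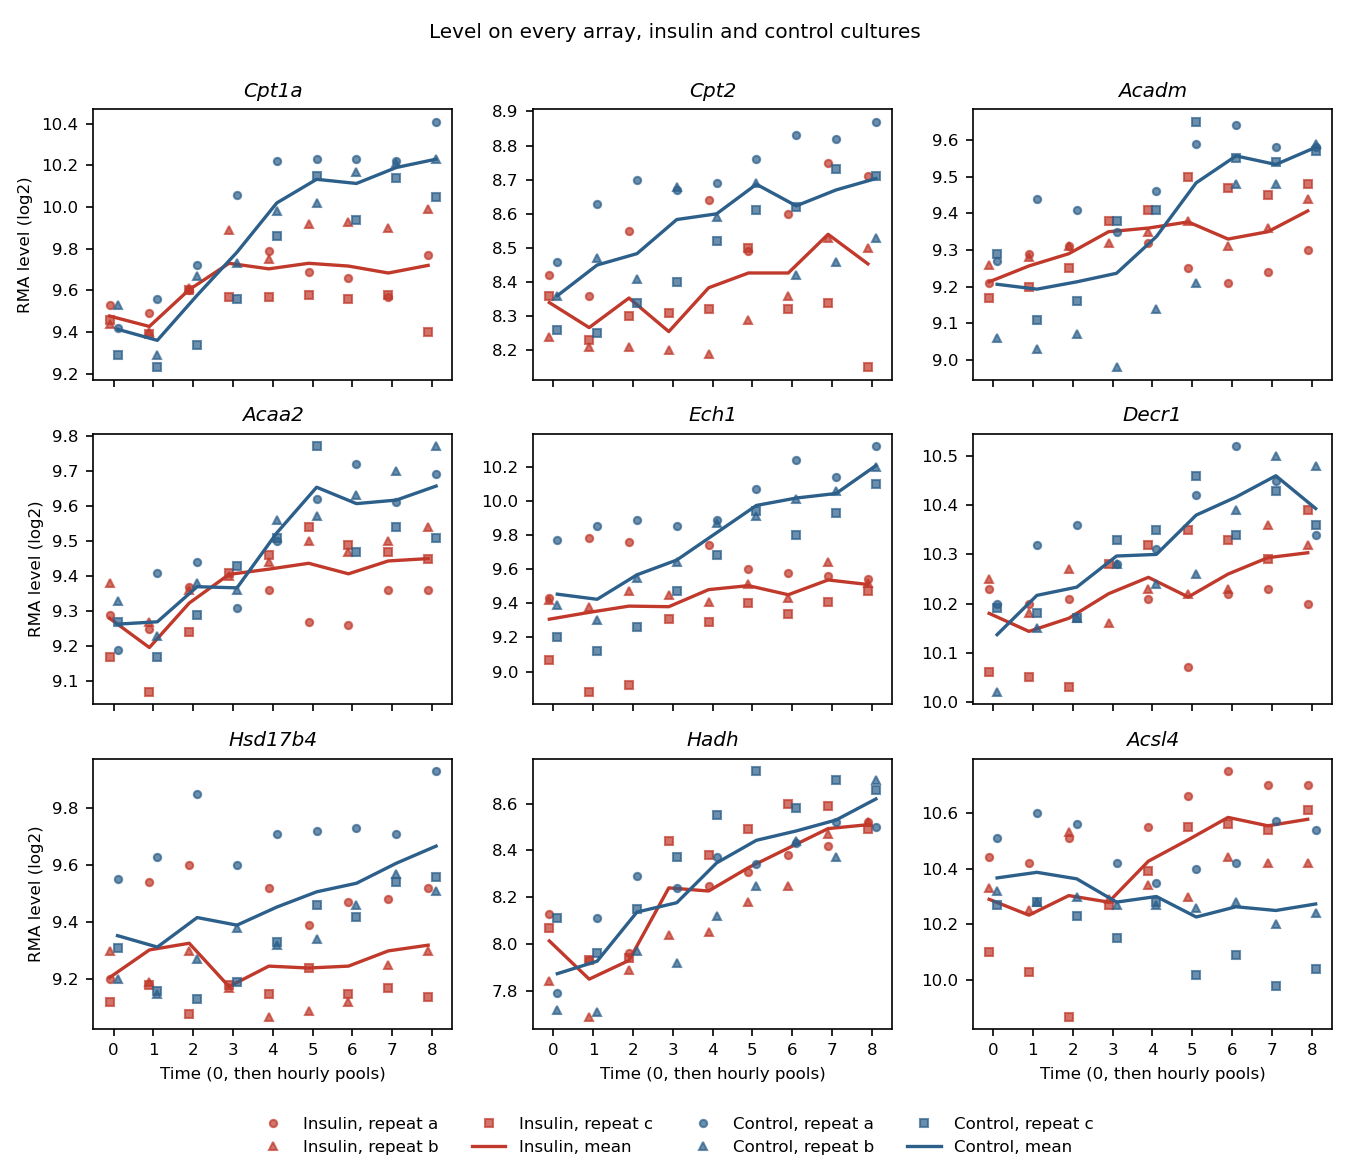
Log2 level on every array (points, shaped by repeat) and the mean of the arrays (lines) at time 0 and in hourly pools 1 to 8 for 9 members, insulin culture and control culture. The insulin lines of Cpt1a and Ech1 level off near 9.7 and 9.5 where the control lines climb on, while Hadh climbs in both cultures and Acsl4 lies higher in the insulin culture.

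For the members that passed as lower, the sequence before the gene's start is shown where the RefSeq table (build GRCr8) held it, because these genes moved in the same direction. The table held windows for 33 of the 39 members, each 250 bases before to 50 bases after the start, and of the 7 that passed as lower it held Cpt1a (chr1:209995910-209996159, plus strand), Cpt2 (chr5:127910819-127911068, minus strand), Acadm (chr2:245542865-245543114, minus strand) and Hsd17b4 (chr18:45515177-45515426, plus strand). The 250 bases before the start are printed 5′ to 3′ on the strand of the gene, with matches to AGGTCA or TGACGTCA (either strand) in capitals:
Cpt1a: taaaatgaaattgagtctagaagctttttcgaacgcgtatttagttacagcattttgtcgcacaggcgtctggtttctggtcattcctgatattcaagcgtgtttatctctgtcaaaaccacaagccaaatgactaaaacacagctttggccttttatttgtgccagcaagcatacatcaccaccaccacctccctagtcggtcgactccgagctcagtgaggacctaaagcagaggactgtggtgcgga
Cpt2: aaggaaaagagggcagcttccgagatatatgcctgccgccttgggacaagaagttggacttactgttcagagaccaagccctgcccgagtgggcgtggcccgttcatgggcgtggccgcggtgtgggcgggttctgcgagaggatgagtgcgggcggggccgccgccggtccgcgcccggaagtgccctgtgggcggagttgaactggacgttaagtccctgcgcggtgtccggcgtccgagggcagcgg
Acadm: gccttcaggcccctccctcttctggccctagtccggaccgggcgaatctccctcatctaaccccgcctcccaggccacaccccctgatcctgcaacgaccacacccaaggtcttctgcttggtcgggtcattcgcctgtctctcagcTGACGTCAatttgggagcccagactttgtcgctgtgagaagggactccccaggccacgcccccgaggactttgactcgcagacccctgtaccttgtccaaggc
Hsd17b4: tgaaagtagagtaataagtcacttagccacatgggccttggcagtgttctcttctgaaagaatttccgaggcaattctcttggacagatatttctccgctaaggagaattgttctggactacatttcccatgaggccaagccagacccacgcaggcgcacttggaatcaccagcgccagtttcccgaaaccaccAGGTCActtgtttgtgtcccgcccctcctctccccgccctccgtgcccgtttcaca

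AGGTCA is the half-site that nuclear receptors such as the PPARs bind, and PPARs with their partner bind a direct repeat of it with 1 base between. The half-site stood in the windows of 8 of 33 members, and in 16.2% of the 33469 windows of the whole table. In Hsd17b4 it began 56 bases before the first base of the gene, and the other windows with it were those of Acadvl, Hadhb, Echs1, Eci1, Eci2, Cat and Ucp3. The direct repeat with both half-sites exact was found in none of the 33 windows and in 0.0538% of all. TGACGTCA, the cyclic AMP response element, stood in 3 member windows (Acadm, Acox3 and Ppargc1a) and in 1.83% of all, that of Acadm beginning 103 bases before the start. The forkhead motif GTAAACA stood in none of the 33 and in 3.78% of all. A match describes the letters only, and binding was not measured.

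Of the 4 acyl-CoA synthetases, only Acsl4 passed over hours 5 to 8, as higher. Acsl4, which prefers arachidonic acid, had a log2 level of 10.30 at the lowest, 10.55 at the median and 10.75 at the highest on the insulin arrays of hours 5 to 8, against 9.98, 10.25 and 10.57 on the control arrays. The highest control arrays, those of repeat a, lay above several insulin arrays of repeats b and c. The difference was 0.30 (SE 0.08, adjusted p = 0.00784), higher in 12 of 12 pairs, with 0.22 in repeat a, 0.15 in b and 0.53 in c. It missed the threshold without repeat b and without repeat c (0.18). Acsl5 differed by 0.17 and was also higher in 12 of 12 pairs, but passed only with the repeat as a block. Acsl1, the main synthetase of muscle and fat, differed by 0.05, Acsl3 by 0.02, and the mitochondrial thioesterase Acot2 by -0.03, none passing.

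Among genes of uptake, binding and storage, Angptl4, a secreted inhibitor of lipoprotein lipase and a known PPAR target, differed by -0.26 (adjusted p = 0.111) with values of -0.75, 0.12 and -0.14 in repeats a, b and c. Fabp3, the fatty acid binding protein of muscle, differed by 0.05, and Plin2, a coat protein of lipid droplets, by 0.11. The uncoupling proteins Ucp2 and Ucp3 both differed by -0.14 with adjusted p of 0.743 and 0.397. Angptl4 passed as lower with the repeat as a block, while Plin2 and Angptl4 lay close to the filter at mean log2 levels of 5.72 and 5.33.

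The regulators themselves did not pass. Ppara had a log2 level of 4.97 at the lowest, 5.09 at the median and 5.41 at the highest on the insulin arrays of hours 5 to 8, against 4.90, 5.09 and 5.23 on the control arrays, so its mean of 5.08 sat at the filter. Ppard, the PPAR form known to be prominent in muscle, had 8.01, 8.26 and 8.46 on the insulin arrays and 7.89, 8.08 and 8.44 on the control arrays. Ppargc1a, a coactivator of PPARs that drives mitochondrial genes, had 5.97, 6.11 and 6.39 on the insulin arrays and 5.56, 6.14 and 6.61 on the control arrays. The cultures overlapped for all 3. The differences were 0.05 (SE 0.06, adjusted p = 0.687) for Ppara, 0.14 (SE 0.06, adjusted p = 0.18) for Ppard and 0.02 (SE 0.10, adjusted p = 0.936) for Ppargc1a, which was -0.13 in repeat a, -0.07 in b and 0.28 in c.

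Each culture was next compared with its own time 0, to see which of them moved. In the insulin culture 1 member, Hadh, rose by hours 5 to 8, by 0.42 (SE 0.11, adjusted p = 0.0383), and none fell. This 1 of 38 (2.63%) stood beside 0.515% of all probe sets passing as higher, and the 0 passing as lower (1 at an unadjusted p below 0.05) beside 0.943%. When the repeat was a block 3 passed as higher, against 4.26% of all, and with time 0 of both cultures as the baseline 3 did, against 1.99%. Hadh lost this call when any 1 of the 3 repeats was left out, and with no filter on dim probe sets. Its log2 level was 8.18 at the lowest, 8.48 at the median and 8.60 at the highest on the insulin arrays of hours 5 to 8, above all 3 arrays of the insulin culture at time 0 (8.13, 7.84 and 8.07). On the control arrays it had 8.25, 8.51 and 8.74, above the 7.79, 7.72 and 8.11 of the control culture at time 0.

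In the control culture 9 members rose by hours 5 to 8 and none fell. Cpt1a rose by 0.75 (SE 0.11, adjusted p = 1.46e-05), 1.69-fold, Hadh by 0.65 (SE 0.11, 0.000168) and Ech1 by 0.61 (SE 0.15, 0.00802). The dimmer probe set of Cpt1a changed by 0.39 and did not pass (adjusted p = 0.443). Acaa2 rose by 0.37, Acadm by 0.33, Echs1 by 0.30, Eci1 by 0.28, and Eci2 and Decr1 by 0.27 each, so that all 4 auxiliary enzymes were among them. The 9 of 38 (23.7%) stood beside 3.65% of all tested probe sets that passed as higher, and the 0 that passed as lower (0 at an unadjusted p below 0.05) beside 2.83%. The block for the repeat brought 16 that passed as higher, against 11.4% of all, and with time 0 of both cultures as the baseline 15 did, against 7.96%. Without the arrays of repeat b up to hour 5 the count was 3, against 1.1% of all, and without repeat b altogether it was 2, Cpt1a and Hadh, against 0.578%.

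Side by side, the members that passed as lower over hours 5 to 8 had smaller mean changes from time 0 with insulin. These means were above 0 in both cultures. Within every repeat the insulin change was the smaller for Cpt1a (0.49 against 0.62 in repeat b, the closest) and Ech1 only. In repeat c Acadm changed by 0.30 with insulin and 0.29 in the control, Decr1 by 0.28 and 0.21, and Acaa2 by 0.31 in both. In repeat a Hsd17b4 changed by 0.27 with insulin and 0.22 in the control, and in repeat b Cpt2 by 0.18 and 0.17. Cpt1a changed by 0.24 in the insulin culture and by 0.75 in the control culture. Ech1 changed by 0.19 with insulin and by 0.61 in the control, Acaa2 by 0.15 with insulin and by 0.37 in the control, and Acadm by 0.15 with insulin and by 0.33 in the control. Cpt2 changed by 0.12 with insulin and by 0.31 in the control, Decr1 by 0.09 with insulin and by 0.27 in the control, and Hsd17b4 by 0.07 with insulin and by 0.23 in the control. None of these 7 had a mean below its time 0 level with insulin. Cat had the lowest insulin value, at -0.19 in the insulin culture and 0.01 in the control culture, and Acsl4 differed in sign, with 0.26 in the insulin culture and -0.11 in the control culture. Both comparisons with time 0 and the difference over hours 5 to 8 draw on the same late arrays.

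Over all 38 members the median change was 0.12 in the insulin culture (33 above 0) and 0.19 in the control culture (35 above 0). Over all genes the medians were 0.01 and 0.02, with 52.9% and 54.8% above 0. Within the repeats, the insulin and control medians over the 38 were 0.10 and 0.20 in a, 0.07 and 0.20 in b, and 0.19 and 0.18 in c. Over the members of the oxidation steps they were 0.11 and 0.22 in a, 0.10 and 0.27 in b, and 0.28 and 0.21 in c. All 25 members of the oxidation steps were above 0 in the control culture, and 23 of 25 in the insulin culture. Every late array lay above every array of time 0 for 2 members in the insulin culture (1.24% of all probe sets) and for 8 in the control culture (2.96%).

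**Figure D3:**
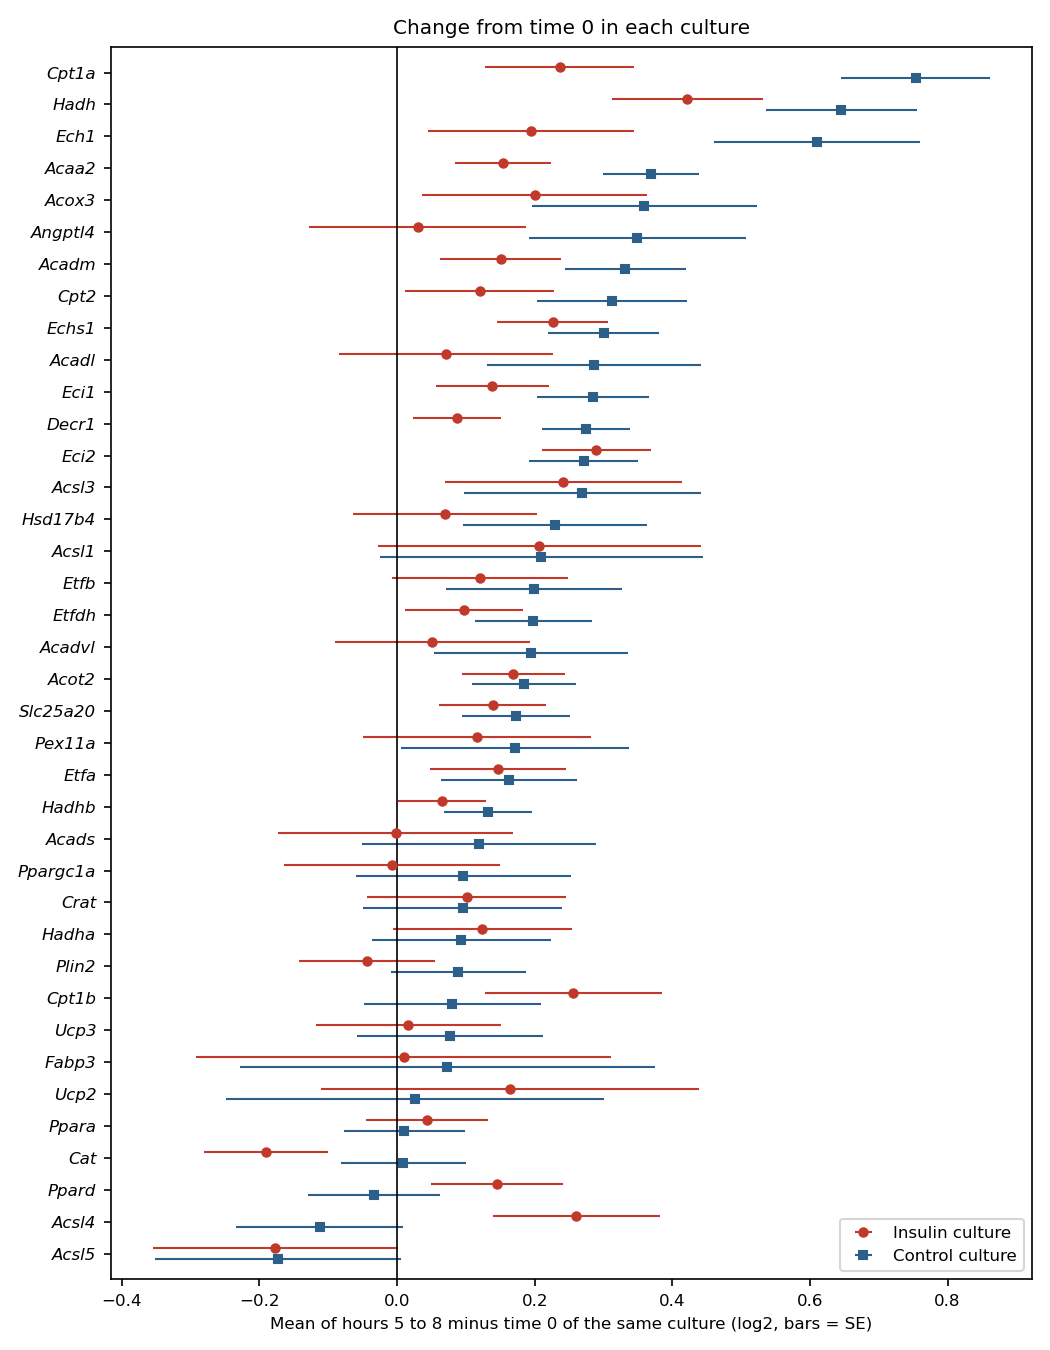
Mean of hours 5 to 8 minus time 0 of the same culture (log2 scale, horizontal axis) for each tested member, insulin culture as circles above control culture as squares, with bars for the SE of the fit. Members are ordered by the control value, from 0.75 for Cpt1a at the top to -0.17 for Acsl5 at the bottom, and in the upper rows the insulin points lie left of the control points for most genes.

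The difference between the cultures at hours 5 to 8 was also set against their difference at time 0, which each rest on 3 arrays per culture at the start. No member passed (0 lower, 0 higher, where 0.159% and 0.0319% of all probe sets did, and 3 lower and 1 higher at an unadjusted p below 0.05). Cpt1a passed as lower with the repeat as a block, where 1.16% of all did, and its value was -0.52. At time 0 itself no member and no probe set passed in limma (0% lower and 0% higher, with 0 members at an unadjusted p below 0.05).

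The timing was read from the hourly pools. Over hours 1 and 2 no member passed (0% of all probe sets lower and 0% higher), with 2 members lower and 0 higher at an unadjusted p below 0.05, and the median over the members was -0.03. Cpt1a differed by 0.05 there and Ech1 by -0.13. From hours 1 and 2 to hours 5 to 8 the difference of Cpt1a changed by -0.50 (SE 0.12, adjusted p = 0.0174), the only member to pass as lower (2.63%, against 0.915% of all), and none passed as higher (0.929% of all, 2 members at an unadjusted p below 0.05). With the repeat as a block 3 passed as lower (5.76% of all) and 2 as higher (6.23% of all). Cpt1a lost this call when any 1 of the 3 repeats was left out, with values between -0.63 and -0.38.

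In single hours, each with 3 arrays per culture or fewer, no member passed (0.166% of all probe-set and hour combinations passed as lower and 0.049% as higher, and 16 of the 304 of the members were lower and 2 higher at an unadjusted p below 0.05). Fitted with a block for the repeat, 14 member and hour combinations passed as lower, where 1.06% of all did, and 1 as higher, where 0.603% did. All fell in hours 5 to 8. Cpt1a, Acadl and Ech1 passed in each of these 4 hours, Hsd17b4 in hours 7 and 8, and Acsl5 as higher in hour 8. Ech1 went through -0.47, -0.57, -0.51 and -0.70 in hours 5 to 8 and Cpt1a through -0.40, -0.40, -0.51 and -0.51, while Acadl stayed between -0.28 and -0.23.

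Averaged over hours 1 to 8, 7 members passed as lower (18.4%, against 6.63% of all probe sets) and none as higher (2 at an unadjusted p below 0.05, and 5.53% of all passed). These were Ech1 at -0.39 (SE 0.07), Cpt1a at -0.26, Acadl and Hsd17b4 at -0.22, Cpt2 at -0.21, Acaa2 at -0.12 and Decr1 at -0.10. Under the block for the repeat 15 passed as lower, against 15.2% of all, and 3 as higher, against 11.7%. The 3 higher ones were Acsl1, Acsl4 and Acsl5. Without the arrays of repeat b up to hour 5, 3 passed as lower, against 2.85% of all.

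Genes around the members were taken from lists of the same and of opposing pathways. Of 22 tested genes of fatty acid oxidation outside the members, 2 passed as lower over hours 5 to 8 and none as higher, where 5.33% and 4.02% of all tested probe sets did. They were Acad11, a dehydrogenase of very long chains, at -0.49 (SE 0.13, adjusted p = 0.0127), and Crot, the peroxisomal carnitine octanoyltransferase, at -0.32 (SE 0.10, adjusted p = 0.0368). Of 18 tested peroxisomal genes 3 passed as lower: Abcd2, a transporter of very long acyl-CoA, at -0.67 (SE 0.11, adjusted p = 6.43e-05), Amacr, a racemase of branched acyl-CoA, at -0.36, and Scp2, a thiolase and sterol carrier, at -0.17. Abcd2 lay close to the filter at a mean log2 level of 5.53. With the repeat as a block 3 of the 22 and 6 of the 18 passed as lower, against 12.5% of all. In the insulin culture Crot, Abcd2 and Amacr changed from time 0 by 0.19, 0.04 and 0.19 without passing, and in the control culture they rose by 0.66, 0.81 and 0.70. Neither change of the other two passed: Acad11 changed by -0.31 in the insulin culture and by 0.34 in the control culture (adjusted p = 0.402), and Scp2 by 0.04 in the insulin culture and by 0.25 in the control culture (adjusted p = 0.0671).

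Of 30 tested genes linked to the PPARs outside the members, 3 passed as lower and 2 as higher, beside the same 5.33% and 4.02% of all probe sets, and the median of the list was 0.00013. With the repeat as a block 8 passed as lower and 5 as higher, against 12.5% and 9.34% of all. Pdk4, the kinase that shuts pyruvate dehydrogenase and a PPAR target, was lower by far more than any member, at -1.37 (SE 0.16, adjusted p = 9.64e-08), having changed by 0.06 in the insulin culture and by 1.65 in the control culture. Its mean log2 level was 5.84, close to the filter. Slc27a1, a fatty acid transporter, was lower at -0.38 (SE 0.12, adjusted p = 0.032). Lpin1, a phosphatidate phosphatase that also acts as a PPAR coactivator, was lower at -0.32 and is named, after its values were seen, beside the 4 with larger differences. Pprc1 and Ppargc1b, both related to Ppargc1a, were higher at 0.67 (SE 0.10, adjusted p = 1.03e-05) and 0.33 (SE 0.10, adjusted p = 0.0191).

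Of 19 tested genes of fatty acid synthesis, among them the member Acsl3, 4 passed as higher, against 4.02% of all probe sets, and none as lower (1 at an unadjusted p below 0.05). With the repeat as a block 11 passed as higher, against 9.34% of all, among them Acly, the ATP citrate lyase, at 0.45, and the elongase Elovl6 at 0.36, both named after their values were seen. Fasn, the fatty acid synthase, was higher at 0.57 (SE 0.13, adjusted p = 0.00175), Slc25a1, the citrate carrier, at 0.41 (SE 0.13), Acaca, the cytosolic acetyl-CoA carboxylase, at 0.23 (SE 0.05), and Elovl1, an elongase, at 0.20 (SE 0.04). Neither of the lists of mitochondrial energy production had a gene that passed: 0 of 16 for the TCA cycle (1 lower at an unadjusted p below 0.05) and 0 of 53 for oxidative phosphorylation (3 lower). With the repeat as a block Sdha of the TCA cycle passed as lower, and of oxidative phosphorylation Ndufs6, Cox4i1 and Atp5f1e passed as lower and Cyc1 as higher (12.5% of all probe sets lower and 9.34% higher), all 5 named after their values were seen. The medians of these 2 lists over hours 5 to 8 were -0.04 and -0.04, beside -0.12 for the members of the oxidation steps and 0.12 for fatty acid synthesis. The members of the oxidation steps had been split off after the values were seen. Outside the members, the median was -0.045 over the 22 other genes of fatty acid oxidation (16 below 0). It was -0.072 over the 18 other peroxisomal genes (14 below 0). Against time 0, 45 of the 53 for oxidative phosphorylation were above 0 in the control culture. Over hours 1 to 8, 4 of the 53 for oxidative phosphorylation and 0 of the 16 passed as lower, against 6.63% of all. None passed as higher. With the repeat as a block 16 of the 53 and 1 of the 16 passed as lower there, against 15.2% of all. As higher, 2 of the 53 did, against 11.7%.

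**Figure D4:**
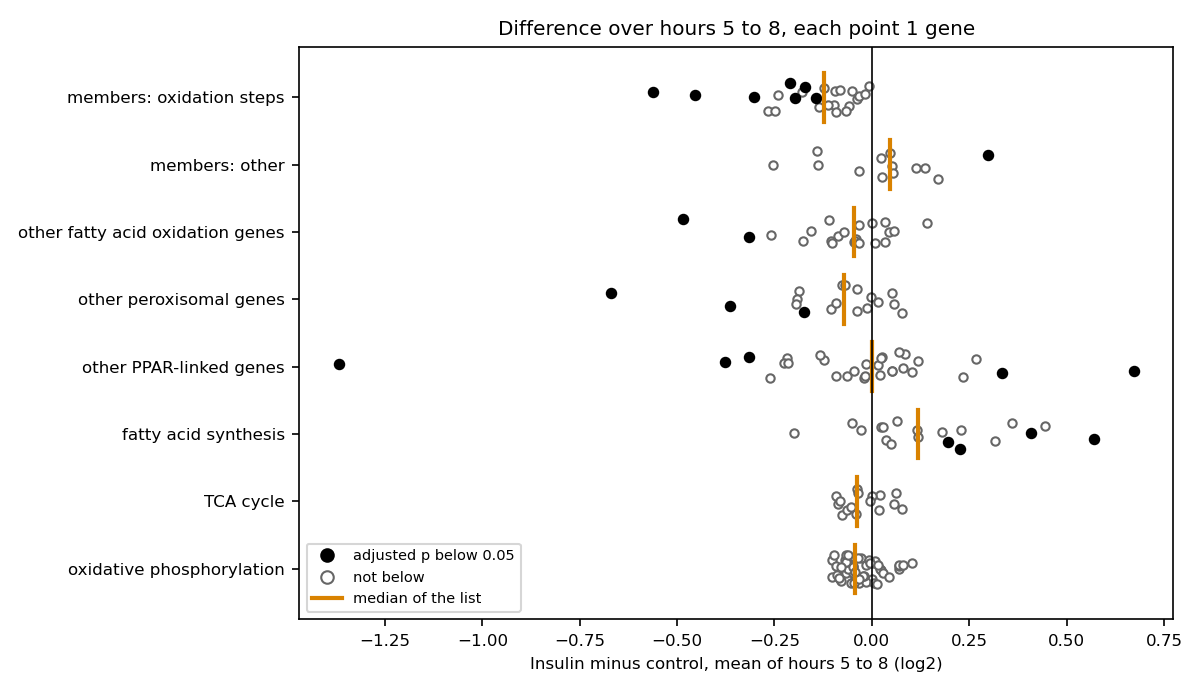
Insulin minus control over hours 5 to 8 (log2 scale, horizontal axis), 1 point for each tested gene, filled where the adjusted p was below 0.05, with the median of each list as a bar. The 25 members of the oxidation steps all lie left of 0, the genes of fatty acid synthesis lie mostly right of it, and the far left point of the PPAR-linked list is Pdk4 at -1.37.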

How the data were processed

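RNA of rat L6 myotubes was hybridised to Affymetrix rat arrays, and the deposited log2 values were made by the authors with background subtraction, quantile normalization over arrays and RMA. They cover 31099 probe sets, 57 of them controls of the manufacturer, which were left out, and 20832 probe sets have 1 symbol in the platform annotation, 436 several and 9831 none. The members and lists, and the hours compared, were chosen with earlier results of these data known. Levels of different probe sets were compared only for the filter, for the choice of the brightest and to call genes bright or dim. They were summed only for the marker lists.

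The brightest 21958 probe sets by their mean level were tested with limma 3.58.1 (R 4.3.3): group means for 18 groups of culture and time, moderated variances with a trend, contrasts of hours 1 and 2, hours 5 to 8, hours 1 to 8, single hours and time 0, and Benjamini-Hochberg adjustment over all of them at 0.05. The scripts were tested on simulated data. The number of arrays limits the precision. Repeats a, b and c were carried out on different days per the labels, and arrays of the same repeat and hour deviated from their group means together in 26 of 26 pairs (r between 0.21 and 0.79), so the repeat pairs the cultures. The main fit has no block. Both it and the fit with a block count the hourly pools of a repeat as independent arrays. Where the pools of a repeat share a gap between the cultures, the p-values of both fits are too small. The labels of the last pool disagree on its time and the source name was used. Lowest, median and highest levels are given for the members that passed over hours 5 to 8 and for the 3 regulators, and from each other list up to 4 passing genes with the largest differences are named. Alternatives were the repeat as a block, 1 mean per repeat, leaving out repeats or the early arrays of repeat b, no filter on dim probe sets, no trend, the mean of a gene's probe sets, arrays centred on their medians, and time 0 of both cultures as the baseline. The 1 mean per repeat with the repeat as a block was added after the data were seen. Promoter windows were taken from RefSeq (GRCr8) by gene ID.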

Additional observations from a re-analysis of the deposited data

Results flagged for a closer look

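The difference of Cpt1a between the insulin and the control culture changed by -0.50 (log2 scale) from hours 1 and 2 to hours 5 to 8, and it was taken up because the change itself passed limma's test (SE 0.12, adjusted p = 0.0174). The adjusted p ranged from 0.000229 to 1.00 over 11 alternatives, 4 of which kept the call. No group held more than 3 arrays, so single arrays were not tested for standing apart.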

How the results depend on the processing

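Directions were stable for the named values and calls were not. Of 319 values of 29 named results under the alternatives, 216 kept direction and call, 102 kept the direction and lost the call, and 1 turned: Ppargc1a over hours 5 to 8 without replicate c, at -0.10, against 0.10 without replicate a (0.02 with all arrays). The cause was not tested.

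With the repeat as a replicate block more members passed: 15 lower and 2 higher over hours 5 to 8, 15 lower and 3 higher over hours 1 to 8, 16 higher in the control culture and 3 in the insulin culture against time 0, 3 lower and 2 higher for the early-to-late change of the difference, 1 lower relative to time 0, and 14 lower and 1 higher in single hours. The other counts stayed the same.

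With 1 mean per repeat, which leaves fewer degrees of freedom, 0 members passed as lower or higher over hours 5 to 8, 0 as lower over hours 1 to 8, 2 as higher in the control culture, 0 in the insulin culture and 0 as lower for the change in limma (at an unadjusted p below 0.05, 3 lower and 0 higher, 1 lower, 3 higher in the insulin culture, and 1 lower for the change). With that mean and the repeat as a replicate block, Cpt1a (adjusted p = 0.0202, range over all alternatives 4.74e-09 to 0.235) and Ech1 (0.0249, range 3.64e-10 to 0.758) passed as lower over hours 5 to 8, 0 as higher there, 0 as lower over hours 1 to 8 and 0 for the change (8 and 2 lower at an unadjusted p below 0.05).

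Leaving out 1 replicate gave 4 to 6 lower and 0 to 2 higher over hours 5 to 8, 2 to 7 lower and 0 to 3 higher over hours 1 to 8, 2 to 7 higher in the control culture, 0 in the insulin culture, and 0 lower for the change. The counts over all tested probe sets moved too. Over hours 5 to 8 they were 661 to 891 lower and 333 to 747 higher, against 1170 and 882 with all arrays. Over hours 1 to 8 they ran from 469 (without b) to 2324 (without a) lower, against 1456. Those higher ran from 215 (without b) to 1860 (without a), against 1215. In the control culture 127 to 829 passed as higher, against 801, so the member counts cannot be read alone. Without repeat b at hours 0 to 5 the counts were 3 lower over hours 1 to 8, 3 higher in the control culture, 0 higher in the insulin culture and 0 lower for the change. Of all probe sets, 2.85% passed as lower over hours 1 to 8 there and 1.1% as higher in the control culture. For the insulin culture, 1 member higher became 0 without the filter, 2 without the trend or with centred arrays, 3 with the mean of a gene's probe sets and 3 with the pooled time 0, which gave 15 for the control culture. Over all probe sets the 113 higher in the insulin culture became 83 without the filter, 119 without the trend and 108 with centred arrays. With the mean of a gene's probe sets 73 of all tested genes passed. With the pooled time 0, 1.99% of all probe sets passed, and 7.96% for the control culture. The mean of probe sets gave 0 lower for the change, and centred arrays 1 higher over hours 1 to 8, where 1421 of all probe sets passed as higher.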
